A study of Mus musculus with 6 samples.

Results

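Zinc transporters, metallothioneins and the zinc-sensing factor MTF1 were examined in a gene table of 6 RNA-seq libraries, of which 3 carry the label AAV-GFP and 3 the label AAV-PDGF-D. The genes were taken by symbol: every SLC30A and SLC39A transporter, every gene of the MT1 series, MT2A, MT3 and MTF1. This gave 30 of the 16191 genes listed, namely 10 SLC30A genes, 13 SLC39A genes, 6 metallothioneins and MTF1. SLC39A2, MT3 and the other MT1 genes were not analysed here. According to the labels and the study's methods, the RNA came from the RPE-choroid complex (the retinal pigment epithelium with the vascular layer beneath it) of young adult C57BL/6J mice 4 weeks after an adeno-associated virus (AAV) was injected under the retina. In both groups the VMD2 promoter, which is active in the retinal pigment epithelium, drove the transgene, GFP in the controls and human PDGF-D in the other group. PDGF-D is a growth factor that binds PDGF receptors, and the question behind the comparison was how its excess in this tissue alters gene expression. Nothing in the labels tells whether the libraries of a group came from separate mice. A p-value here therefore sets a difference against the spread between libraries only, and may not extend to other mice.

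Zinc is held in a narrow range inside cells. Most SLC30A proteins (ZnT) move zinc out of the cytosol, across the plasma membrane or into organelles and vesicles, and SLC39A proteins (ZIP) move it into the cytosol. Metallothioneins are small cysteine-rich proteins that bind zinc and copper, and MTF1 is a transcription factor that binds metal response elements when zinc rises, among others in the promoters of metallothionein genes and of SLC30A1. The retinal pigment epithelium and choroid are rich in zinc, and zinc is among the supplements given in age-related macular degeneration.

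The genes of the table are human, although the labels name mouse tissue. Human Ensembl IDs stand at 15504 entries and the species name Homo sapiens at the other 687, which are unnamed new genes. The sources used here do not give their build and annotation. The PDGFD gene, whose human form the vector is said to carry, was listed at 6.87, 6.56 and 6.86 FPKM under the AAV-GFP label and at 5.24, 6.28 and 6.36 FPKM under the AAV-PDGF-D label. The 3 values under the AAV-PDGF-D label were thus below all 3 of the others, against that label, and the difference did not pass the test (limma, adjusted p = 0.213). FPKM is a fragment count scaled to the length of the transcript and to the number of mapped fragments of the library. Of 12 markers of the retinal pigment epithelium, 9 reached 1 FPKM in all 6 libraries, among them KRT8 with a mean of 1277 FPKM, while RPE65 and BEST1 had means of 0.869 and 0.424 FPKM. PECAM1 of endothelial cells and PTPRC of leukocytes had means of 0.167 and 0.0315 FPKM. The hemoglobin genes HBA1, HBA2 and HBB were listed at 0 in 3 libraries and held only 0.319 FPKM of HBA1 in replicate 2 of the AAV-GFP label, but they summed to 340.3 FPKM in replicate 1 of the AAV-GFP label and to 421.8 FPKM in replicate 3 of the AAV-PDGF-D label. The origin of the RNA is therefore in doubt, and the libraries are named below by their labels. The FPKM of a library summed to between 499393 and 518405, and the read depth is unknown.

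The upstream sequences of the mouse genes Mt1, Mt2 and Slc30a1 are shown because metallothionein genes and SLC30A1 are well-known targets of MTF1. The sequences come from RefSeq on the mouse build GRCm38.p6, whereas the table holds human genes. Mouse promoter entries were matched for 21 of the 25 symbols looked up, the others being Slc39a14, Slc39a4, Slc39a6 and Slc30a8. The human MT1 genes were left out of that search, since they do not pair 1 to 1 with mouse genes, and mouse Mt1 was added by its own name. The core of the metal response element was searched as TGCACNC and TGCGCNC on both strands, in the 250 bases before and 50 bases after each annotated start. At least 1 match stood in 25.7% of 32851 such windows of all genes, at least 2 in 7.11% and at least 4 in 0.517%. Capitals mark the matches, in the 150 bases before the start and, for Mt1, in a stretch of 25 bases after it.
Mt1, chr8:94178939-94179088, plus strand: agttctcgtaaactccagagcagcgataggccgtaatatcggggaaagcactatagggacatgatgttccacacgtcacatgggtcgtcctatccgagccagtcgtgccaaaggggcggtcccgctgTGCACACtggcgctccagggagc
Mt1 after the start, chr8:94179091-94179115, plus strand: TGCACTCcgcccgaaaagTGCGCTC
Mt2, chr8:94172468-94172617, plus strand: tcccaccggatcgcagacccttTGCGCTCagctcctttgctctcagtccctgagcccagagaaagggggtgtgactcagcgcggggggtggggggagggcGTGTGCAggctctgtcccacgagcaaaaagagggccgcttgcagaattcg
Slc30a1, chr1:191906631-191906780, plus strand: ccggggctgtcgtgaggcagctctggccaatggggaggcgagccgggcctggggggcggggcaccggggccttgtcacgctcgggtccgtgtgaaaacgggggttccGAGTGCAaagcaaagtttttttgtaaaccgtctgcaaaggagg
Positions are counted from the annotated start, and where transcription begins was not examined, so a match after that start need not lie in the transcript. The Mt1 window held 3 matches, 1 before and 2 after the annotated start. That of Mt2 held 4, of which 3 lay before the start and the printed stretch shows 2. The window of Slc30a1 held 2 matches, 1 before the start, which is shown, and 1 after it. Such matches were not particular to these genes. Each of the 22 mouse genes searched was counted by its window with the most matches, whereas the shares above are of single windows. Of these genes, 13 held at least 1 match and 6 held 2 or more, among them Slc30a4 and Slc30a10 with 3 each and Slc30a2 with 2. None was found in the windows of Slc39a10, Slc30a9 or Mtf1. A match describes the letters of the window and says nothing of binding by MTF1.

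Most of the transporters were well expressed, SLC39A genes above the others. Of the 30 genes, 25 had a mean of at least 0.1 FPKM and were fitted, and 21 had a mean of at least 1 FPKM. The median of the gene means was 12.8 FPKM, against 6.38 FPKM over the whole table. By family it was 21.9 FPKM for SLC39A, 4.44 FPKM for SLC30A and 5.42 FPKM for the metallothioneins. The plot of all levels shows that the most abundant members were SLC39A transporters and that the values of most genes interleaved between the labels.

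**Figure D1:**
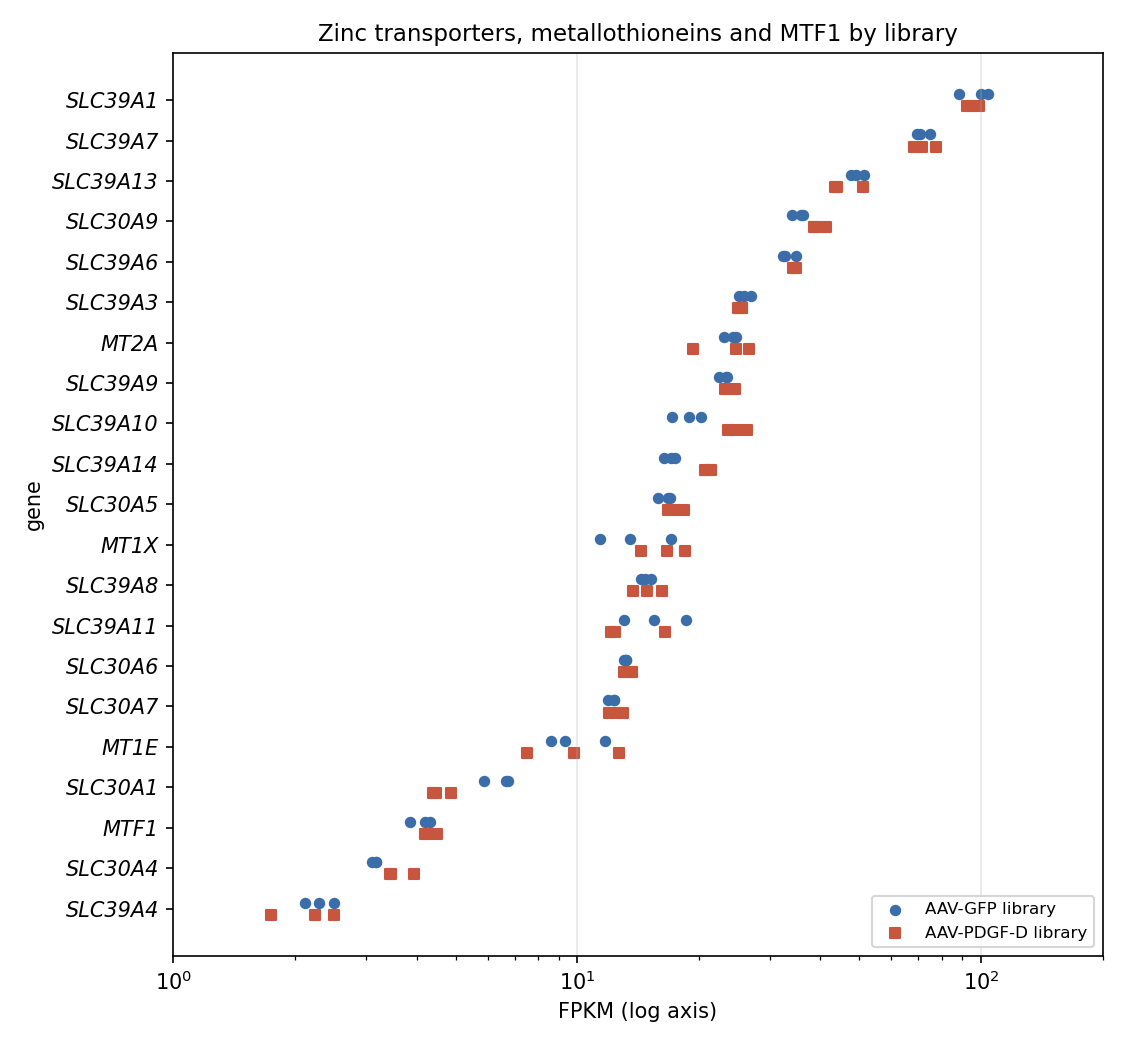
FPKM of the 21 genes with a mean of at least 1 FPKM (log axis), one point per library, with circles for the AAV-GFP label and squares for the AAV-PDGF-D label (3 libraries each). SLC39A1 stood highest at 88.3 to 104.1 FPKM, and the points of SLC30A1, SLC30A4, SLC30A9, SLC39A10 and SLC39A14 did not overlap between the labels.

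None of the 21 genes was called higher and none lower. A call asked for an adjusted p up to 0.1 in limma, a change by 1.5-fold or more and a mean of at least 1 FPKM. Over all 11444 genes with that mean, 2.01% were called higher and 1.75% lower, so a count of 0 among 21 genes is near the background. These cut-offs were taken from the study, which applied them to another test, DESeq2, and reported more genes past them than were called here. The calls and shares given here are therefore those of limma on FPKM and not the outcome of the study's own test. At an adjusted p of at most 0.1 with no limit on the fold, SLC39A10, SLC39A14 and SLC30A9 were higher (3 of 21) and SLC30A1 was lower (1 of 21), where 20.9% of all genes passed upward and 11.7% downward. An unadjusted p under 0.05 gave the same counts, 3 and 1. All 3 values under the AAV-PDGF-D label lay above all 3 under the AAV-GFP label for 4 of the 21 genes, against 27.3% of all genes, and below them for 1, against 16.4%. These shares are near or under those of the table as a whole. The median log2 fold change was 0.03 for the 21 genes and 0.04 for all genes, and the median of its absolute size was 0.07 against 0.15. The 95% interval of the fold change lay within 1.5-fold in both directions for 19 of the 21 genes and for 9202 of all 11444. The exceptions were SLC30A1, whose interval reached down to 0.618, and MT1X, whose interval reached up to 1.503.

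**Figure D2:**
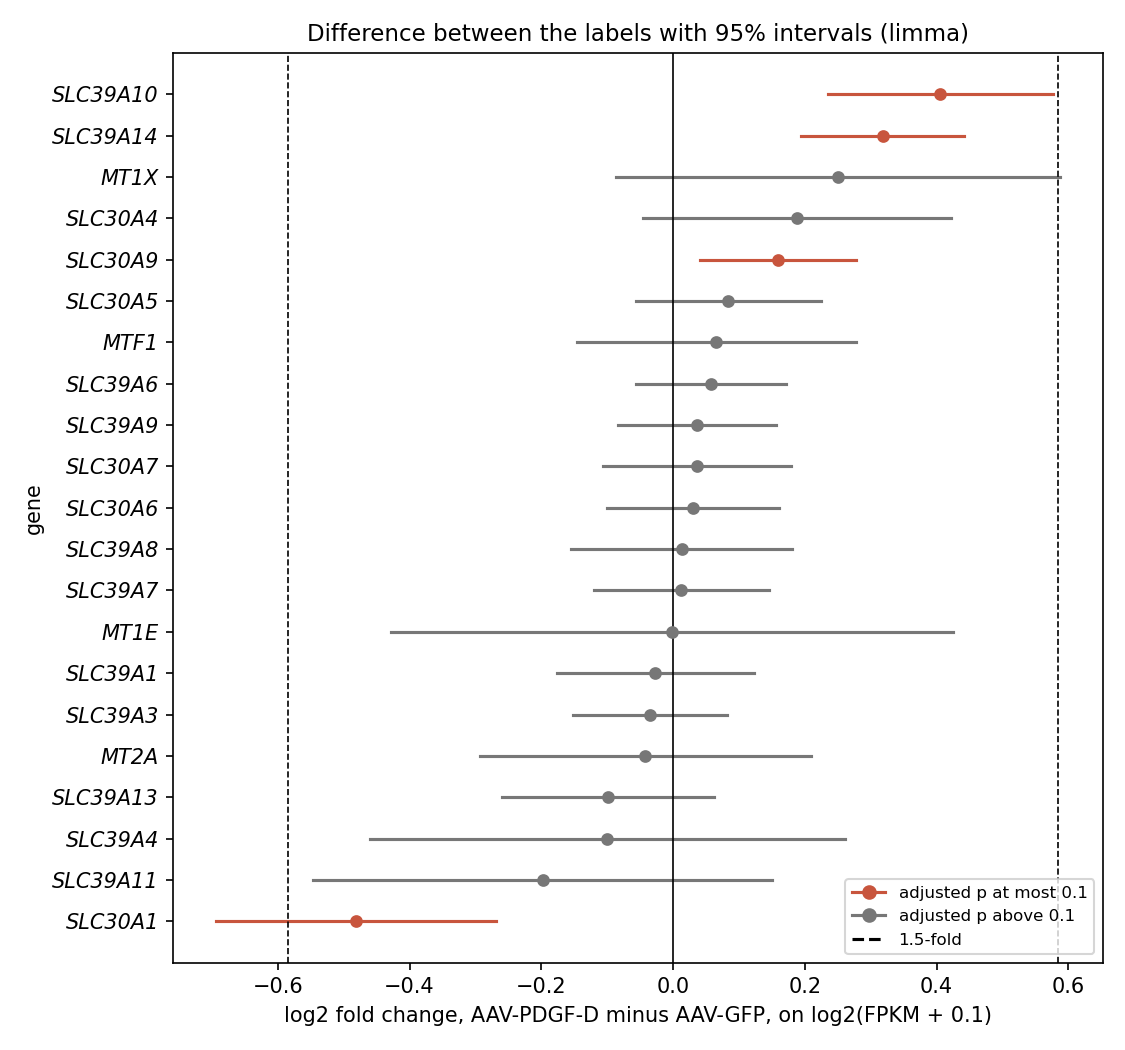
Log2 fold change of the 21 genes, AAV-PDGF-D label minus AAV-GFP label, on log2(FPKM + 0.1), with 95% intervals from limma over 6 libraries. Coloured points have an adjusted p of at most 0.1, and broken lines mark 1.5-fold. SLC39A10 stood highest at 0.41 and SLC30A1 lowest at -0.48, and both points lay inside the broken lines.

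Among the SLC30A exporters, SLC30A1 was lower under the AAV-PDGF-D label and SLC30A9 was slightly higher. SLC30A1 (ENSG00000170385), the zinc exporter of the plasma membrane, was listed at 5.88, 6.67 and 6.73 FPKM under the AAV-GFP label and at 4.46, 4.86 and 4.39 FPKM under the AAV-PDGF-D label. The lowest AAV-GFP library was above the highest AAV-PDGF-D library. The group means were 6.43 ± 0.472 and 4.57 ± 0.255 FPKM (SD, n = 3 libraries each). The fold change was 0.716, with a 95% interval of 0.618 to 0.830, and the adjusted p of limma was 0.0109. It stayed past that threshold in all 17 alternative settings, with an adjusted p between 0.00428 and 0.0602, and it passed the fold threshold in 1 of them, the scaling to respiratory chain genes, with a log2 fold change of -0.62, where that scaling placed the median of all genes at -0.11.

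SLC30A9 (ENSG00000014824), which exports zinc from mitochondria, was the most abundant exporter. Its values were 34.1, 36.2 and 35.8 FPKM under the AAV-GFP label and 38.5, 41.3 and 38.8 FPKM under the AAV-PDGF-D label. The groups did not overlap, yet the step was small, with a fold change of 1.12 (1.03 to 1.21) and an adjusted p of 0.0634 in limma. In 10 of 17 alternative settings the adjusted p of SLC30A9 was above 0.1. Its adjusted p was 0.176 and 0.115 when replicate 1 or replicate 3 of the AAV-GFP label was left out, and 0.198 and 0.105 when replicate 2 or replicate 3 of the AAV-PDGF-D label was. With the scaling to respiratory chain genes its log2 fold change was 0.02 (adjusted p = 0.874).

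The exporters of the secretory pathway differed by less than the test could separate. SLC30A5 (ENSG00000145740) and SLC30A6 (ENSG00000152683), which work as a pair in the early secretory pathway, come next in abundance. SLC30A5 was listed at 16.7, 15.9 and 16.9 FPKM under the AAV-GFP label and at 18.4, 16.8 and 17.4 FPKM under the AAV-PDGF-D label, with overlap (adjusted p = 0.374, limma). SLC30A6 was listed at 13.2, 13.2 and 13.1 FPKM under the AAV-GFP label and at 13.6, 13.1 and 13.6 FPKM under the AAV-PDGF-D label, the tightest set of values among the exporters (fold change 1.02, 0.932 to 1.12). SLC30A7, a Golgi exporter, lay between 11.9 and 13.0 FPKM in all 6 libraries. SLC30A4, found in endosomes and vesicles, was between 3.11 and 3.18 FPKM under the AAV-GFP label and between 3.44 and 3.93 FPKM under the other. Its groups did not overlap, but its adjusted p was 0.229 in limma. SLC30A10, chiefly a manganese exporter, was low, with a mean of 0.414 FPKM. SLC30A2, SLC30A3 (the exporter of synaptic vesicles) and SLC30A8 (that of insulin granules) had means of 0.0141, 0.0282 and 0.00468 FPKM and were listed at 0 in 3, 4 and 5 of the 6 libraries. The 10 SLC30A genes together summed to 85.9, 87.4 and 88.5 FPKM under the AAV-GFP label and to 90.9, 92.9 and 91.2 FPKM under the AAV-PDGF-D label. The values of SLC30A9, the mitochondrial exporter, make up much of these sums, which therefore do not measure zinc export from the cytosol. SLC30A1 differed in the opposite direction.

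Among the SLC39A importers, SLC39A10 and SLC39A14 were higher under the AAV-PDGF-D label, and the 9 other genes with a mean of at least 1 FPKM overlapped between the labels. SLC39A10 (ENSG00000196950), an importer of the plasma membrane, was listed at 18.9, 20.3 and 17.2 FPKM under the AAV-GFP label and at 24.7, 23.7 and 26.4 FPKM under the AAV-PDGF-D label. The gap between the groups was wider than the range within either of them. The fold change was 1.32 (1.18 to 1.49) with an adjusted p of 0.00914 in limma, and over the 17 alternative settings the log2 fold change ran from 0.26 to 0.46 and the adjusted p from 0.00734 to 0.0885.

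SLC39A14 (ENSG00000104635), which also carries iron and manganese and is induced in the liver during inflammation, was listed at 17.4, 17.1 and 16.4 FPKM under the AAV-GFP label and at 21.3, 20.7 and 21.5 FPKM under the AAV-PDGF-D label. Within each label its libraries stayed close together, with means of 17.0 ± 0.523 and 21.2 ± 0.413 FPKM (SD, n = 3 libraries each). The fold change was 1.25 (1.14 to 1.36) and the adjusted p was 0.00709 in limma. It remained past the threshold in all 17 alternative settings, with log2 fold changes from 0.17 to 0.34 and adjusted p-values from 0.0059 to 0.0899. Neither SLC39A10 nor SLC39A14 reached the fold threshold in any of them.

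**Figure D3:**
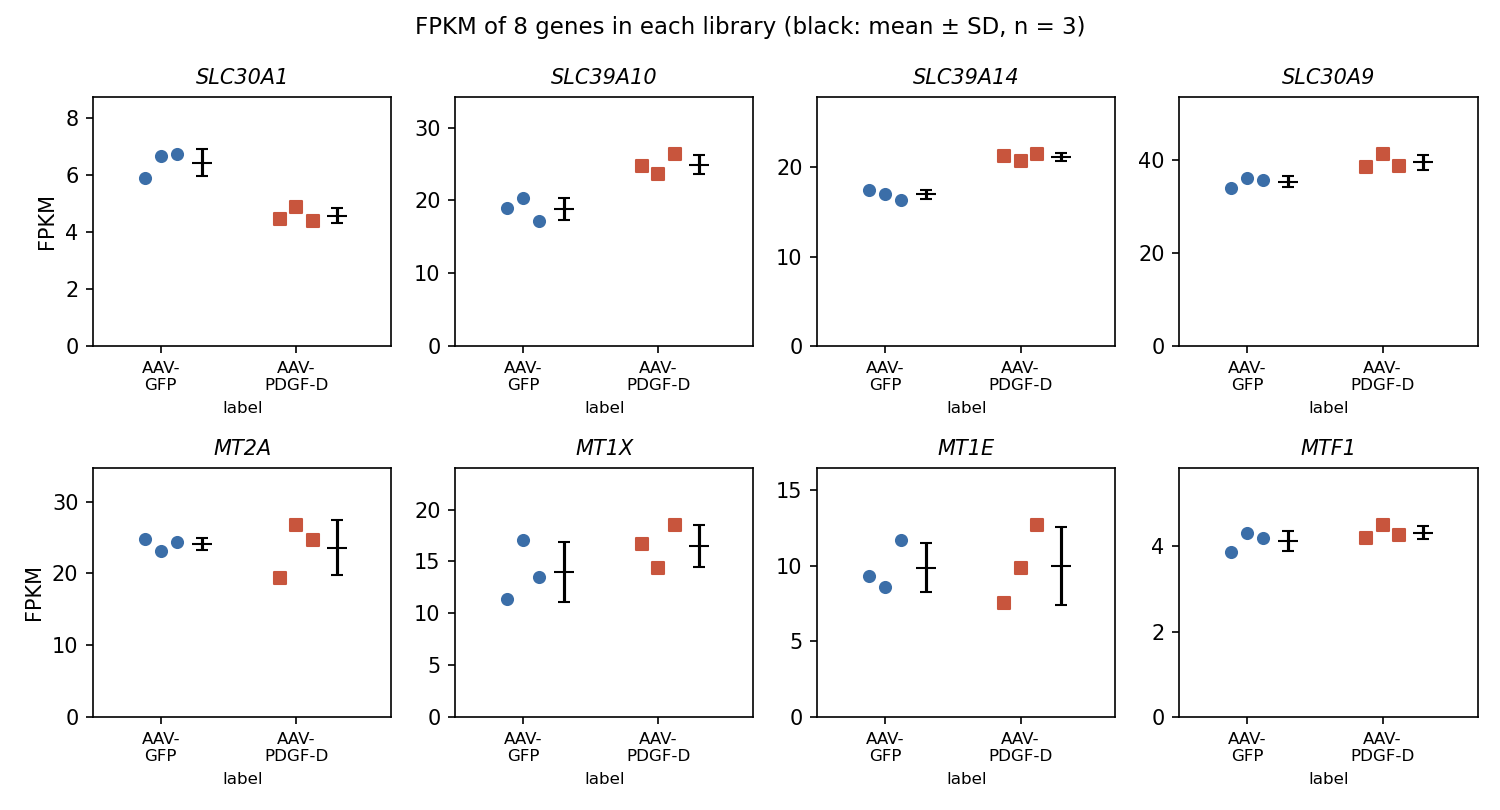
FPKM in each library for 8 genes, with circles for the AAV-GFP label, squares for the AAV-PDGF-D label, and black bars for the mean ± SD of 3 libraries; each axis starts at 0. SLC30A1 was lower and SLC39A10, SLC39A14 and SLC30A9 were higher under the AAV-PDGF-D label without overlap, while MT2A, MT1X, MT1E and MTF1 overlapped.

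The most abundant importers did not pass the test. SLC39A1 (ENSG00000143570), a widely expressed importer of the plasma membrane, was listed at 99.9, 88.3 and 104.1 FPKM under the AAV-GFP label and at 98.9, 95.03 and 92.4 FPKM under the AAV-PDGF-D label. Its AAV-PDGF-D values all lay inside the range of the AAV-GFP libraries (fold change 0.982, 0.885 to 1.09). SLC39A7 (ENSG00000112473), which releases zinc from the endoplasmic reticulum, was listed at 69.6, 70.7 and 74.8 FPKM and at 77.4, 71.6 and 68.1 FPKM in the same order. Here the AAV-PDGF-D values enclosed the others (fold change 1.01, 0.920 to 1.11). SLC39A13 (ENSG00000165915), a transporter of the Golgi and its vesicles that is needed for connective tissue, was listed at 47.6, 49.0 and 51.4 FPKM and at 51.1, 44.0 and 43.4 FPKM. AAV-PDGF-D replicate 1 lay among the AAV-GFP values and the other AAV-PDGF-D libraries lay below them (adjusted p = 0.360, limma). Without that library the gene passed, with a log2 fold change of -0.17 and an adjusted p of 0.065, and with the scaling to respiratory chain genes it passed at -0.24 (adjusted p = 0.0633).

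The remaining importers ranged over a wide span of levels and each overlapped between the labels. SLC39A6 lay between 32.3 and 34.9 FPKM, SLC39A3 between 25.0 and 27.0 FPKM, and SLC39A9, a Golgi transporter, between 22.5 and 24.6 FPKM. SLC39A8, which carries zinc and manganese, lay between 13.8 and 16.2 FPKM and SLC39A11 between 12.1 and 18.6 FPKM. Of these, SLC39A11 varied most from library to library. SLC39A4, the importer of the intestine that is mutated in acrodermatitis enteropathica, had a mean of 2.23 FPKM. SLC39A12, known from the brain, and SLC39A5, known from the pancreas and gut, had means of 0.115 and 0.0464 FPKM. The 13 importers summed to 369.6 ± 11.7 FPKM under the AAV-GFP label and 374.7 ± 13.1 FPKM under the AAV-PDGF-D label (SD, n = 3 libraries each), a difference smaller than either SD.

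No metallothionein passed the test between the labels. MT2A (ENSG00000125148), the most abundant, was listed at 24.7, 23.1 and 24.4 FPKM under the AAV-GFP label and at 19.4, 26.7 and 24.7 FPKM under the AAV-PDGF-D label. The lowest and the highest value were both under the AAV-PDGF-D label (fold change 0.971, 0.816 to 1.16, adjusted p = 0.824 in limma). MT1X (ENSG00000187193) was listed at 11.4, 17.1 and 13.5 FPKM and at 16.7, 14.4 and 18.5 FPKM in the same order. AAV-GFP replicate 2 lay among the AAV-PDGF-D values, and the fold change was 1.19 (0.942 to 1.503, adjusted p = 0.265 in limma). Without that library MT1X passed the test, with a log2 fold change of 0.40 and an adjusted p of 0.0652. That was the only 1 of 17 alternative settings in which it passed. Without AAV-GFP replicate 1 instead, its log2 fold change was 0.12 (adjusted p = 0.608 in limma). With both libraries high in hemoglobin left out it was 0.03 (adjusted p = 0.913 in limma). MT1E (ENSG00000169715) was listed at 9.32, 8.61 and 11.7 FPKM and at 7.52, 9.83 and 12.7 FPKM. The AAV-PDGF-D values enclosed those of the AAV-GFP libraries (fold change 0.999, 0.744 to 1.34, adjusted p = 0.998 in limma).

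The other metallothioneins had means under 1 FPKM. MT1F had a mean of 0.907 FPKM, MT1A was listed at 0 in 4 libraries and above it in 1 of each label, replicate 2 of AAV-GFP at 0.957 FPKM and replicate 1 of AAV-PDGF-D at 0.909 FPKM, and MT1M was listed at 0 in 4 libraries, among them all 3 labelled AAV-PDGF-D. Metallothionein genes are near-identical copies of each other whose reads can be split between them, so the values of single genes are uncertain and their sum is given as well. The sum was 46.5, 50.6 and 51.1 FPKM under the AAV-GFP label and 45.4, 51.6 and 56.8 FPKM under the AAV-PDGF-D label, or 49.4 ± 2.55 and 51.3 ± 5.66 FPKM (SD, n = 3 libraries each). MT2A, MT1X and MT1E made up between 95.8% and 98.8% of it in each library. The coefficient of variation within a label (the SD as a share of the mean, averaged over both labels) had a median of 16.4% over these 3 genes (9.78% to 21.1%) and of 4.49% over the 17 transporters with a mean of at least 1 FPKM (1.52% to 17.8%). The ranges overlapped, and SLC39A11, at the top of the transporters, varied more than MT2A and MT1X. Over 3119 genes of the table with a mean in the range of the 3 metallothioneins it was 5.77%.

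**Figure D4:**
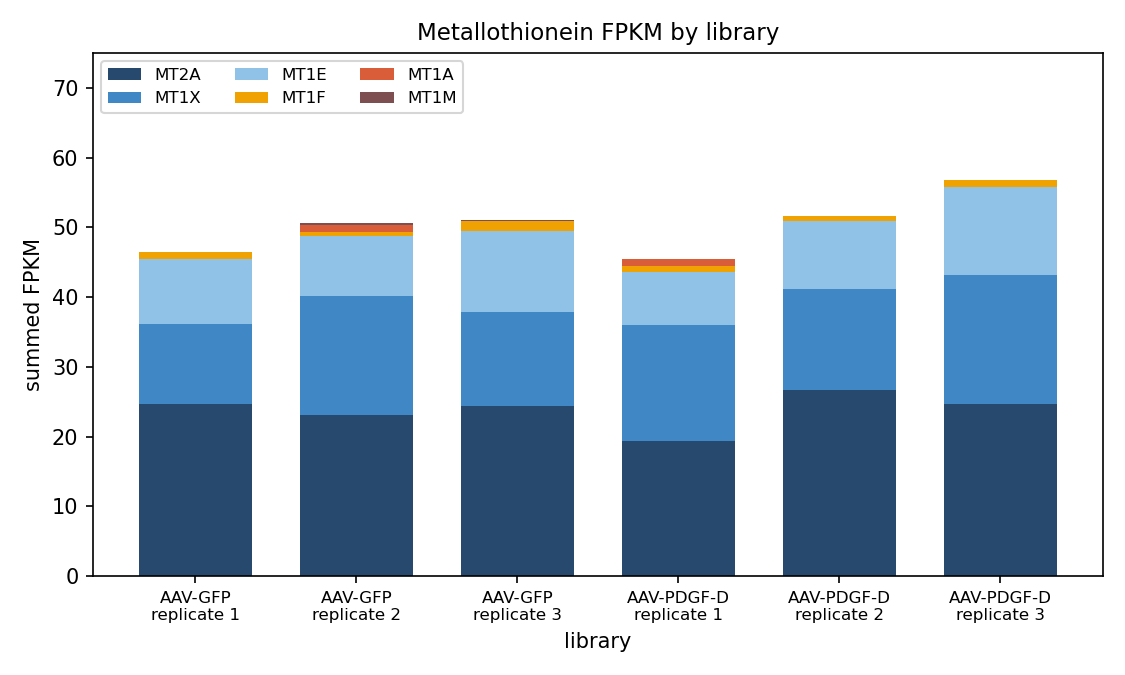
Summed FPKM of the 6 metallothionein genes in each of the 6 libraries, stacked by gene; bars start at 0. MT2A, MT1X and MT1E make up nearly the whole of every bar, and the sums of 45.4 to 56.8 FPKM under the AAV-PDGF-D label enclose those of 46.5 to 51.1 FPKM under the AAV-GFP label.

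MTF1 (ENSG00000188786) was listed at 3.86, 4.31 and 4.20 FPKM under the AAV-GFP label and at 4.19, 4.49 and 4.27 FPKM under the AAV-PDGF-D label. The groups overlapped, and the fold change was 1.05 (0.904 to 1.21) with an adjusted p of 0.663 in limma. SLC30A1 was thus lower and no metallothionein passed the test, but the difference between SLC30A1 and the metallothioneins was not tested. The interval of MT1E ran from 0.744 to 1.34, and a difference within those limits could not be told from the spread between libraries.

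Genes of neighbouring metal pathways were read from lists drawn up with earlier results of these data known, and are given as counts. Over all genes with a mean of at least 1 FPKM, 2.01% were called higher and 1.75% lower, and 20.9% passed the adjusted p upward and 11.7% downward. The counts stand beside these shares as a description only. Of 15 other genes linked to zinc, 10 had a mean of at least 1 FPKM and 2 were called higher, CA12 and PGF, with 5 past the adjusted p upward and 1 downward. CA12, a zinc-containing carbonic anhydrase, was listed at 7.42, 7.88 and 7.36 FPKM under the AAV-GFP label and at 13.9, 14.2 and 13.2 FPKM under the AAV-PDGF-D label. It rose 1.81-fold (1.63 to 2.02, adjusted p = 0.000572 in limma), and PGF, a growth factor of the VEGF family, rose 1.60-fold (1.21 to 2.10, adjusted p = 0.0296) from a mean of 1.90 FPKM. The most abundant of the list, the thioredoxin gene TXN and the Golgi protein gene TMEM165, had means of 142.5 and 102.5 FPKM and fold changes of 1.33 and 1.201, past the adjusted p and under the fold threshold.

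No gene of copper handling was called, and 1 of iron handling was. Of 16 copper genes, 9 had a mean of at least 1 FPKM, and 3 of these passed the adjusted p, all upward, beside 20.9% of all genes. SOD1, which needs both copper and zinc, and the copper chaperone gene ATOX1 were the most abundant, with fold changes of 1.01 and 1.07 that did not pass. Of 16 iron genes, 13 had a mean of at least 1 FPKM, 4 passed the adjusted p upward and 1 downward. That 1 was SLC40A1, ferroportin, the iron exporter of the plasma membrane, which was listed at 7.46, 6.67 and 8.40 FPKM under the AAV-GFP label and at 3.35, 3.79 and 4.44 FPKM under the AAV-PDGF-D label. It fell to 0.520-fold (0.423 to 0.638, adjusted p = 0.00352 in limma). FTH1 and FTL, the subunits of ferritin, were the most abundant at means of 2501 and 2298 FPKM, and neither passed.

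Of 12 genes of the metal and oxidative stress response, 9 had a mean of at least 1 FPKM, 3 passed the adjusted p, all upward, and 1, SLC7A11, was called, beside 20.9% and 2.01% of all genes. SLC7A11, the cystine importer, rose 1.53-fold (1.28 to 1.82) from a mean of 2.26 FPKM. HMOX1, which is induced by heme and by metals, had a fold change of 0.889 (0.717 to 1.10) and did not pass. The most abundant of this list, TXNRD1 and DNAJB1, had fold changes of 1.12 and 1.04, of which the first passed the adjusted p. Of 12 glucocorticoid response genes, listed because glucocorticoids also induce metallothioneins, 9 had a mean of at least 1 FPKM, none was called, and 2 passed the adjusted p in each direction. DUSP1 and GLUL, the most abundant, had fold changes of 0.993 and 0.915 and did not pass.

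Some markers of cell types differed between the labels as well. Of all genes with a mean of at least 1 FPKM, 20.9% passed the adjusted p upward and 11.7% downward. The shares called were 2.01% higher and 1.75% lower, and the marker counts stand beside these as a description only. Of the markers of the retinal pigment epithelium with a mean of at least 1 FPKM, 1 of 10 passed the adjusted p upward, KRT8. The 4 that passed downward were PMEL, TYRP1, SERPINF1 and CRIM1. The summed level was 3376 to 3533 FPKM under the AAV-GFP label and 3569 to 3641 FPKM under the AAV-PDGF-D label. Most of that sum came from KRT8, KRT18 and EZR, with means of 1277, 769 and 719 FPKM, so it says little of the other markers. The pigment cell genes PMEL and TYRP1 were called lower, with log2 fold changes of -0.84 and -0.80. All 5 fibroblast markers reached a mean of at least 1 FPKM, 4 passed downward, and the sum of the 5 was 199.4 to 241.7 and 173.5 to 194.4 FPKM. Of 5 markers of pericytes and smooth muscle cells, 2 passed downward, with sums of 1884 to 2049 and 1770 to 1853 FPKM. Endothelial, macrophage and rod markers summed to at most 22.1 FPKM in any library. Of 4 macrophage markers listed, CSF1R was called lower (log2 fold change -0.95, adjusted p = 0.0230 in limma) and CD68 passed upward (0.20, adjusted p = 0.0531). The sum of the 4 was 18.2 to 20.7 and 21.1 to 22.1 FPKM. Nearly all of that sum came from CD68, with a mean of 19.6 FPKM, so it says little of the others. CSF1R, C1QB and PTPRC had means of 1.08, 0.0561 and 0.0315 FPKM. Of the endothelial markers KDR passed downward (-0.21, adjusted p = 0.0806). The part of cell composition in the differences of SLC30A1, SLC39A10, SLC39A14 and SLC30A9 was not tested, and in bulk RNA fewer cells of a type and less RNA per cell cannot be told apart. With the 2 libraries high in hemoglobin left out, SLC30A1, SLC39A10 and SLC39A14 passed the adjusted p, that of SLC30A1 at 0.0602 with a log2 fold change of -0.52, and SLC30A9 did not (0.234).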

How the data were processed

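According to the labels, RNA of 6 libraries was poly(A)-selected and sequenced. Alignment with STAR 2.4.2a to mm10, a mouse build, and quantification with RSEM 1.2.29 are stated in the methods and in the submitters' processing notes. The deposited values are FPKM that the authors computed per gene and library, for human genes. No counts or depths are used here, and no columns of per-sample values were left out. Low values did not settle on steps of single reads, so no count test was run. The test was limma 3.58.1 (R 4.3.3) with trended variances, run on log2(FPKM + 0.1) over the 13821 genes whose mean reached 0.1 FPKM, with Benjamini-Hochberg adjustment over all of them. The pseudocount makes fold changes of low genes too small. The smallest p of an exact permutation test of 3 against 3 libraries is 0.1. Sums were made in R and motif counts in Python 3.11.15, and the fit was tested on simulated data.

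The members, gene lists and tests were chosen with earlier results of these data known. All 6 values were to be given for called members, for members with an adjusted p of at most 0.1 and groups that did not overlap, and for the 3 with the highest mean in each family. From the other lists, called genes and the 2 with the highest mean were to be named. HMOX1, the marker genes, PDGFD and the genes with values at 0 were named outside that rule. The alternatives were pseudocounts of 1 and 0.01, other filters, scalings, variance models and thresholds, a replicate block, and leaving out libraries.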

Additional observations from a re-analysis of the deposited data

How the results depend on the processing

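The counts of 0 members called higher and 0 lower held under other pseudocounts, filters, variance models and each library left out (0 to 0 in both directions). With no fold threshold they became 3 higher and 1 lower, and with scaling to 78 respiratory chain genes 1 was called lower, SLC30A1. Under it the median of all genes went from 0.04 to -0.11 (log2), and SLC39A13 and SLC39A3 passed the adjusted p downward with SLC30A1 (3 in all). Without AAV-PDGF-D replicate 1, 2 members passed downward. The median of all genes was 0.01 (log2) with scaling to a common sum and -0.00042 with scaling by median of ratios. No member past the adjusted p changed direction in any setting. Members that were not past it changed sign most often for SLC39A8 (6 of 17 settings) and SLC39A7 (5 of 17). Over all genes the calls ran from 138 to 271 higher and from 140 to 451 lower among the scalings and single libraries left out; pseudocount 1 gave 148 and 110, and dropping the minimum mean gave 332 and 321.

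The replicate numbers gave no sign of pairing the libraries. Deviations of libraries of the same number correlated at -0.202, 0.00389 and -0.135 over genes. Across numbers, AAV-GFP replicates 1, 2 and 3 correlated at 0.291, 0.206 and 0.161 with AAV-PDGF-D replicates 3, 1 and 2. The other correlations were -0.145, -0.189 and 0.0161. The pair at 0.291 was the 2 libraries high in hemoglobin. A pairing or batch under other numbers was not tested. With a replicate block, 0 members were called higher and 0 lower, 2 passed the adjusted p upward and 1 downward, and SLC30A1 kept its log2 fold change of -0.48 (adjusted p = 0.0316). Precision is limited by 3 libraries a label and by the unknown depth, above all for members under 1 FPKM.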
